A study of Rattus norvegicus with 9 samples.

Results

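The genes described are the transcripts of complement component C1 (C1qa, C1qb, C1qc, C1r and C1s), its inhibitor (Serping1), the central component C3, and the anaphylatoxin receptors (C3ar1 and C5ar1). They were taken by gene ID from tables of 22890 genes, and 8 of the 9 were found; C5ar1 was not analysed here. All 8 passed the filter on low counts. The tables hold RNA-seq read counts from striatal tissue of Rattus norvegicus in 3 groups of 3 libraries. The first is labelled Sham. ICH stands for intracerebral hemorrhage, a bleed within the brain. EDB stands for edaravone dexborneol, a drug that joins a free radical scavenger with a borneol compound. Whether a hemorrhage was also made in the EDB rats is not stated in the labels. They give no strain, age, sex, dose, route or time, and do not say how the hemorrhage or the sham operation was made. No label ties a library to an animal of its own, so p-values measure the spread between these samples, which may be technical in part.

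Complement is a cascade of proteins that tags and clears microbes, dying cells and debris. In its classical pathway, C1q binds a target and activates the proteases C1r and C1s, which lead to cleavage of C3. The fragment C3a acts through the receptor C3aR, and C3 fragments left on a surface are read by integrin receptors on phagocytes. The C1 inhibitor encoded by Serping1 blocks C1r and C1s. In brain, microglia are the main source of C1q and express C3ar1, and reactive astrocytes are known to make C3.

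The regions around the starts of some of these genes are shown because their transcripts, like the others found, rose together against Sham. The C1qb, C1qc and C1qa genes lie next to each other on rat chromosome 5, and C1r lies next to C1s on chromosome 4. Of the 9 genes, 5 had a promoter in the RefSeq table of assembly GRCr8, which gives 250 bases before to 50 after the start, and 4 are printed 5′ to 3′ on the gene's own strand. Capitals mark matches to the motifs searched. The C1qa window is chr5:154419884-154420183, minus strand; the C1qb window is chr5:154407778-154408077, minus strand. Those of C3 and C3ar1 are chr9:2201290-2201589 and chr4:157756481-157756780, both on the minus strand.
C1qa: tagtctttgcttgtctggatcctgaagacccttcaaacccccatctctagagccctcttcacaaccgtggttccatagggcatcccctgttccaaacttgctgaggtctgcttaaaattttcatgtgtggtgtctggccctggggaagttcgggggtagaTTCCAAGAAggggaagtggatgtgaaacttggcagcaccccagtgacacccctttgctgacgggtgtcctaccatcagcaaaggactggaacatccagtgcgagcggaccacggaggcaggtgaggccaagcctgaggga
C1qb: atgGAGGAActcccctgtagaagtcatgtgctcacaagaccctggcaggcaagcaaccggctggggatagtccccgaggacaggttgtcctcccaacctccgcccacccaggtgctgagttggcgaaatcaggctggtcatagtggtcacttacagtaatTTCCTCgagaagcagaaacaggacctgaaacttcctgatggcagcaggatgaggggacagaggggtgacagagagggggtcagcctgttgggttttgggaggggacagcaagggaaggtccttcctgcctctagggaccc
C3: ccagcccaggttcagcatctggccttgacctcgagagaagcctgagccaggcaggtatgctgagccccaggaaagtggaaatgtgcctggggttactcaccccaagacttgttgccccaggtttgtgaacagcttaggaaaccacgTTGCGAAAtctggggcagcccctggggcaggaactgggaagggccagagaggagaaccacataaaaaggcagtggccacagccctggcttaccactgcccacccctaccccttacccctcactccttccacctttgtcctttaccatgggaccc
C3ar1: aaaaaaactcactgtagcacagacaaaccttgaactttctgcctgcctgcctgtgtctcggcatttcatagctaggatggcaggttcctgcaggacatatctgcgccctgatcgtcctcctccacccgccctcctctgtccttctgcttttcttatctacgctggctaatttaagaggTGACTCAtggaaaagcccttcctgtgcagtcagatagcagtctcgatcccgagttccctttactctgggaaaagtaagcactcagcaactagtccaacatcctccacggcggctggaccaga

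Both strands were searched for 6 short motifs, and overlaps between motifs were allowed. The C1qa window held a match to the STAT motif TTCNNNGAA at -90 to -82 from the start, and 8.87% of the 33469 promoters in the table held one. In the C1qb window the SPI1 motif GAGGAA, named for a factor of myeloid cells, matched at -247 to -242 and, on the other strand, at -90 to -85. The C1r window, which is not printed, also matched this motif, at -55 to -50. At least 1 such match was present in 27.6% of all promoters. The C3 window matched the C/EBP motif TTGNGNAA at -104 to -97 (13.3% of promoters), and the C3ar1 window matched the AP-1 motif TGANTCA at -72 to -66 (7.33%). The ETS-IRF motif GGAANNGAA (9.32%) and the ISRE motif GAAANNGAA (9.71%) were not found in these windows. A match describes letters in a window and shows no binding.

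Libraries held 14658110 to 17659936 counts, and levels are given in CPM, the count of a gene relative to the library size after TMM scaling. Striatal transcripts (Drd1, Drd2, Ppp1r1b, Adora2a and Penk) were present in all 9 libraries, at a summed 4110 to 9714 CPM. Several libraries stood apart. Choroid plexus markers summed to 7340 CPM in EDB 3 and to 29.1 to 75.9 CPM elsewhere. ICH 1 had 0 counts of the Y-linked Kdm5d and of Eif2s3y, and the others had 49 to 313 counts of each. Without ICH 1, the transcripts of the genes described, other than C3, rose in ICH against Sham by log2 fold changes of 1.51 to 3.25. All of these stayed below an adjusted p of 0.05 (edgeR). Without EDB 3 those in EDB against Sham, C3 included, rose by 1.28 to 2.64, all called. Alb, which encodes albumin, was at 166 and 165 CPM in Sham 1 and Sham 3 and at 3.21 CPM in Sham 2.

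Each of the 8 transcripts described was higher in ICH than in Sham, and each was higher in EDB than in Sham. In ICH against Sham, 8 of 8 rose at an adjusted p under 0.05 in edgeR's quasi-likelihood test with Benjamini-Hochberg adjustment over 14274 genes, where 11.4% of all tested genes rose. All 3 ICH libraries were above all 3 Sham libraries for 8 of 8, against 20.2% of tested genes. The median log2 fold change of the 8 was 2.55, beside 0.01 for all genes tested. In EDB against Sham, 8 of 8 rose, where 4.95% of all genes did, and 8 of 8 had no overlap, against 15.1%. Their median log2 fold change was 1.925 (-0.01 for all genes). Both comparisons use the same Sham libraries. These genes and the lists below were chosen with earlier results of these data known. The shares of all genes, here and below, give a scale and are no test of a set.

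EDB and ICH differed less. Of the 8 genes, 1 fell in EDB against ICH, Serping1, where 0.631% of all genes fell. All 3 EDB libraries lay below all 3 ICH libraries for 5 of the 8 genes (C1qb, C1qc, C1r, C3ar1 and Serping1), against 13.6% of tested genes. The median log2 fold change of the 8 was -0.59, beside -0.03 for all genes. At an unadjusted p under 0.05 the count was 7 of 8, all but C3, where 16.2% of all tested genes reached it. DESeq2 called 3 of the 8 lower in EDB, C1qc, C3ar1 and Serping1, where it called 3.38% of all genes lower.

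**Figure D1:**
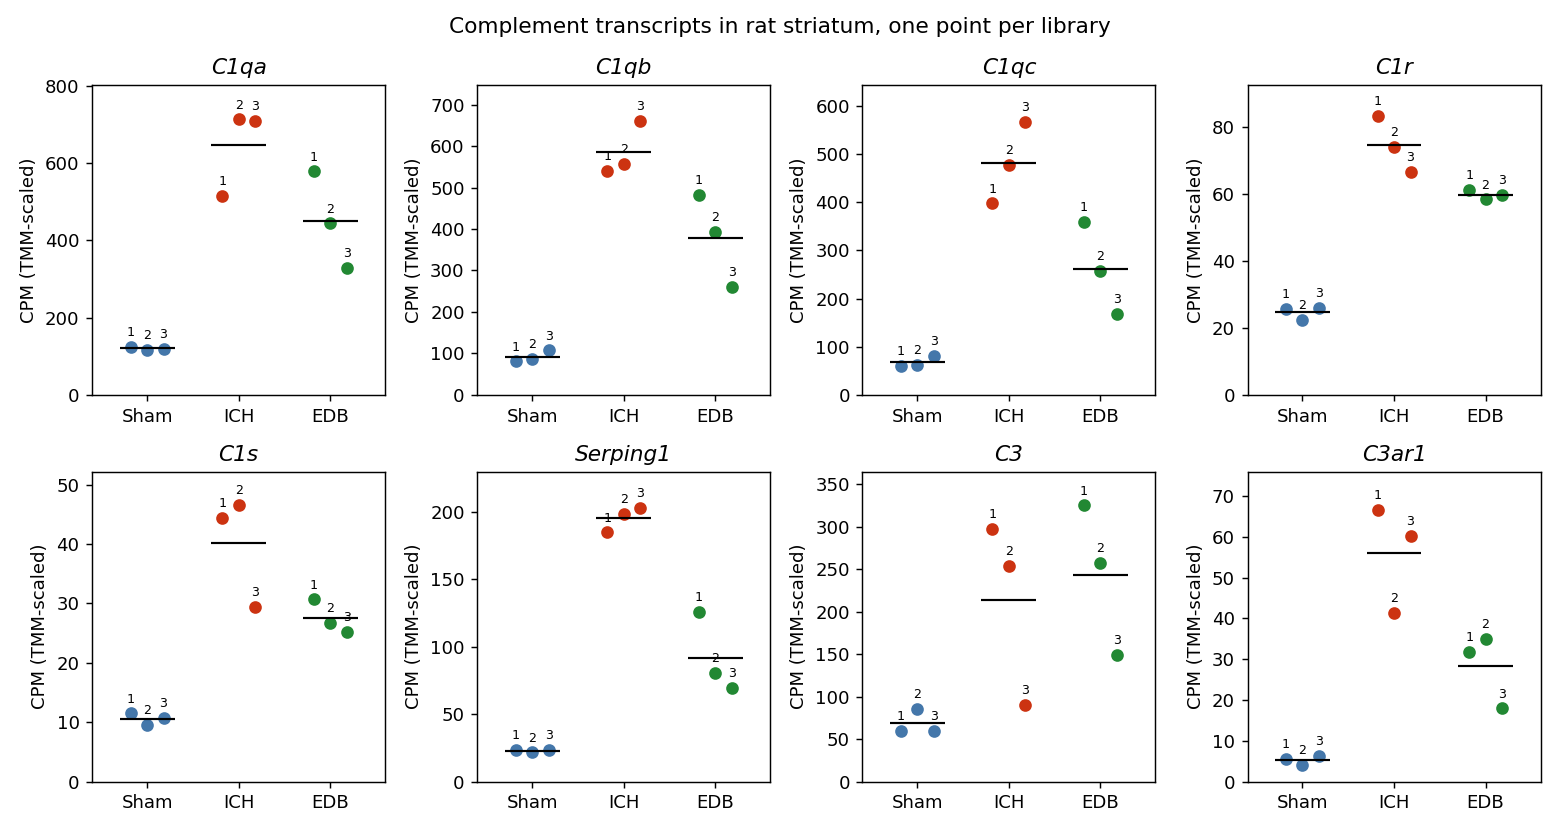
Level of each of the 8 transcripts in CPM scaled by TMM (vertical axis, from 0) in the 3 libraries of Sham, ICH and EDB. Points are libraries with their replicate number and bars are group means; all ICH and EDB points lie above all Sham points, and C3 ranges within ICH from 90.3 to 297 CPM.

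The recognition subunit C1q is built from chains encoded by C1qa, C1qb and C1qc, all of which rose against Sham in both other groups. C1qa was at 124, 117 and 119.6 CPM in Sham 1, 2 and 3, at 515.5, 713 and 709 CPM in ICH, and at 579, 444 and 329 CPM in EDB. ICH 1 was the lowest of its group and lay below EDB 1, so ICH and EDB overlapped. The log2 fold change of C1qa was 2.43 ± 0.21 (SE, adjusted p = 3.79e-05, edgeR) in ICH against Sham and 1.91 ± 0.20 (adjusted p = 0.000625) in EDB against Sham. Between EDB and ICH it was -0.52 with a 95% interval of -0.95 to -0.09 (adjusted p = 0.222), which was not called.

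C1qb was at 80.9, 86.8 and 107 CPM in Sham, at 539, 558 and 660.5 CPM in ICH, and at 483, 392 and 261 CPM in EDB. The 3 groups did not overlap, and EDB 3 was the lowest EDB library for each of the C1q chains. C1qb had log2 fold changes of 2.68 ± 0.22 (SE, adjusted p = 3.03e-05, edgeR) in ICH against Sham and 2.05 ± 0.21 (adjusted p = 0.000566) in EDB against Sham. For EDB against ICH the value was -0.63, with a 95% interval of -1.08 to -0.18 (adjusted p = 0.172).

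C1qc was at 60.0, 62.4 and 81.65 CPM in Sham, at 398, 477 and 567.5 CPM in ICH, and at 359, 258 and 168 CPM in EDB. Again the groups did not overlap. Its log2 fold changes were 2.82 ± 0.26 (SE, adjusted p = 6.01e-05, edgeR) in ICH against Sham and 1.94 ± 0.26 (adjusted p = 0.00142) in EDB against Sham. EDB against ICH gave -0.88, with a 95% interval of -1.42 to -0.34 (adjusted p = 0.121, edgeR), and DESeq2 called this difference at an adjusted p of 0.0184. None of the 5 genes of C1 (C1qa, C1qb, C1qc, C1r and C1s) was called in EDB against ICH by edgeR or limma-voom; all 5 had an unadjusted p under 0.05 in edgeR, and DESeq2 called 1.

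Markers of microglia and macrophages moved with the C1q chains, and their part in these differences was not tested. In bulk tissue, a change in the number of cells of a type and a change in RNA per cell cannot be told apart. The 8 markers summed to 477 to 559 CPM in Sham, 1785 to 1811 CPM in ICH and 869 to 1611 CPM in EDB, and none was at 0. Of the 8, 6 rose in ICH against Sham and 6 rose in EDB against Sham, where 11.4% and 4.95% of all genes rose. Between EDB and ICH edgeR called 0 of the 8, with 4 at an unadjusted p under 0.05, beside 16.2% of all genes. Limma-voom and DESeq2 called 0. Tmem119, a marker of resident microglia, was at 39.7 to 52.4 CPM in Sham, 43.3 to 68.6 CPM in ICH and 40.5 to 73.1 CPM in EDB, and the groups overlapped. EDB 3 had the lowest marker sum of its group, as it had the lowest level of each C1q chain. Without EDB 3 the EDB against ICH log2 fold changes were -0.34 for C1qa, -0.42 for C1qb and -0.64 for C1qc.

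C1r and C1s encode the serine proteases of C1, of which C1r cleaves C1s. C1r was at 25.5, 22.4 and 26.0 CPM in Sham, at 83.3, 73.8 and 66.4 CPM in ICH, and at 61.1, 58.25 and 59.7 CPM in EDB. The groups did not overlap, and the EDB libraries were close together at 59.7 ± 1.43 CPM (SD, n = 3). C1r rose by a log2 fold change of 1.59 ± 0.13 (SE, adjusted p = 2.68e-05, edgeR) in ICH against Sham and 1.27 ± 0.12 (adjusted p = 0.000467) in EDB against Sham. EDB against ICH gave -0.32, with a 95% interval of -0.59 to -0.05 (adjusted p = 0.224).

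C1s was at 11.5, 9.51 and 10.7 CPM in Sham, at 44.4, 46.6 and 29.5 CPM in ICH, and at 30.7, 26.7 and 25.2 CPM in EDB. ICH 3 was below EDB 1, so those groups overlapped, while both were clear of Sham. The log2 fold change was 1.93 ± 0.19 (SE, adjusted p = 7.34e-05, edgeR) in ICH against Sham, 1.38 ± 0.19 (adjusted p = 0.00178) in EDB against Sham, and -0.55 with a 95% interval of -0.95 to -0.14 (adjusted p = 0.181) in EDB against ICH.

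Serping1, which encodes the inhibitor of both proteases, was at 23.8, 21.6 and 23.6 CPM in Sham, at 184.5, 198 and 202 CPM in ICH, and at 125, 80.7 and 69.6 CPM in EDB. The groups did not overlap, and the ICH libraries were close together at 195 ± 9.37 CPM (SD, n = 3). Its log2 fold change in ICH against Sham was 3.08 ± 0.20 (SE, adjusted p = 1.99e-05, edgeR), the eighth smallest p of all genes tested. Against Sham, EDB gave 1.997 ± 0.20 (adjusted p = 0.000467). Serping1 fell in EDB against ICH by 1.09 on the log2 scale, with a 95% interval of -1.50 to -0.67 and an adjusted p of 0.0411 (edgeR). That call was lost when any of 7 libraries was left out, namely any ICH library, Sham 1 or 3, or EDB 2 or 3, with adjusted p from 0.0598 to 0.144 and log2 fold changes of -0.92 to -1.13. It held without Sham 2 and without EDB 1, and all 3 EDB libraries were lower than all 3 ICH libraries.

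Markers of monocytes, and Gfap among markers of astrocytes, also followed the order of Serping1 over the groups, and their part in its values was not tested. Monocyte markers summed to 35.7 to 52.4 CPM in Sham, 409 to 666 CPM in ICH and 137 to 204 CPM in EDB, although Ccr2, a defining marker, was at or near 0. Most of that sum was 1 gene, Lyz2, at means of 39.1, 446 and 125 CPM in Sham, ICH and EDB. Between EDB and ICH, Plac8 and S100a4 overlapped, while Lyz2 and Ly6c did not. Of the 4 tested monocyte markers, 4 rose in ICH against Sham and 1 fell in EDB against ICH. Of all genes, 11.4% rose in the first comparison and 0.631% fell in the second. The 6 astrocyte markers summed to 4010 to 4636 CPM in Sham, 8796 to 9025 CPM in ICH and 6286 to 7421 CPM in EDB, and none was at 0. The differences between the groups in that sum came mostly from Gfap, a filament gene of reactive astrocytes, at a mean of 484 CPM in Sham, 4915 CPM in ICH and 3233 CPM in EDB. Of the 6, Gfap and Gja1 rose in ICH against Sham, and 1, Gfap, rose in EDB against Sham, where 4.95% of all genes rose. EdgeR called none of the others in a comparison with Sham, while DESeq2 called 1 of them lower in ICH. S100b had means of 2170, 1704 and 1973 CPM, Aldh1l1 of 35.2, 30.6 and 32.5 CPM, Slc1a3 of 843, 942 and 710.5 CPM, and Aqp4 of 229.9, 435 and 197 CPM in Sham, ICH and EDB.

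C3 is the component on which the complement pathways converge. It was at 60.0, 85.7 and 59.8 CPM in Sham, at 297, 254 and 90.3 CPM in ICH, and at 325, 257 and 149 CPM in EDB. ICH 3 was close to Sham 2 and below every EDB library, and the ICH and EDB groups overlapped widely. C3 was called against Sham in ICH, with a log2 fold change of 1.64 ± 0.41 (SE, adjusted p = 0.0184, edgeR), and in EDB, with 1.83 ± 0.41 (adjusted p = 0.0238). The first call was lost without Sham 1, Sham 2, Sham 3, ICH 1 or ICH 2 (adjusted p 0.052 to 0.0792), and without ICH 3 the log2 fold change was 2.01 (adjusted p = 0.00126). The second was lost without Sham 1, Sham 2, Sham 3 or EDB 1 (adjusted p 0.0508 to 0.114), and with no filter on low counts (adjusted p 0.0625). EDB against ICH gave a log2 fold change of 0.19, with a 95% interval of -0.69 to 1.07 (adjusted p = 0.848), which leaves room for a change in either direction. Liver makes most plasma C3, and liver transcripts summed to 205, 56.0 and 219 CPM in Sham, to 19.99 to 59.1 CPM in ICH, and to 50.6 and 55.1 CPM in EDB 2 and EDB 1, with Serpina1 at 0 in all libraries. EDB 3 had 6709 CPM of the list, of which Ttr, also a choroid plexus transcript, made 6680 CPM and Alb 25.8 CPM. The part of liver and choroid plexus transcripts in the C3 level was not tested.

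C3ar1 encodes the receptor of C3a. Its level was 5.62, 4.03 and 6.37 CPM in Sham, 66.55, 41.4 and 60.1 CPM in ICH, and 31.7, 35.0 and 17.9 CPM in EDB. The 3 groups did not overlap, although ICH 2 and EDB 2 were near each other. With a log2 fold change of 3.39 ± 0.30 (SE, adjusted p = 4.11e-05, edgeR), C3ar1 had the largest rise of the 8 genes in ICH against Sham, and ranked 120 among all tested genes by that measure. In EDB against Sham the value was 2.40 ± 0.29 (adjusted p = 0.000996), also the largest of the 8. EDB against ICH gave -0.99, with a 95% interval of -1.57 to -0.41 (adjusted p = 0.106, edgeR), and DESeq2 called the difference at an adjusted p of 0.0141. Neutrophil markers, which mark another cell that carries the receptor, summed to 8.07 to 10.3 CPM in Sham, 54.2 to 65.6 CPM in ICH and 21.1 to 37.6 CPM in EDB, with Mpo and Elane at or near 0. Most of that sum was 1 gene, Csf3r, at means of 7.71, 53.3 and 29.1 CPM in Sham, ICH and EDB. S100a8 and S100a9 overlapped between EDB and ICH. The part of these markers was not tested.

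**Figure D2:**
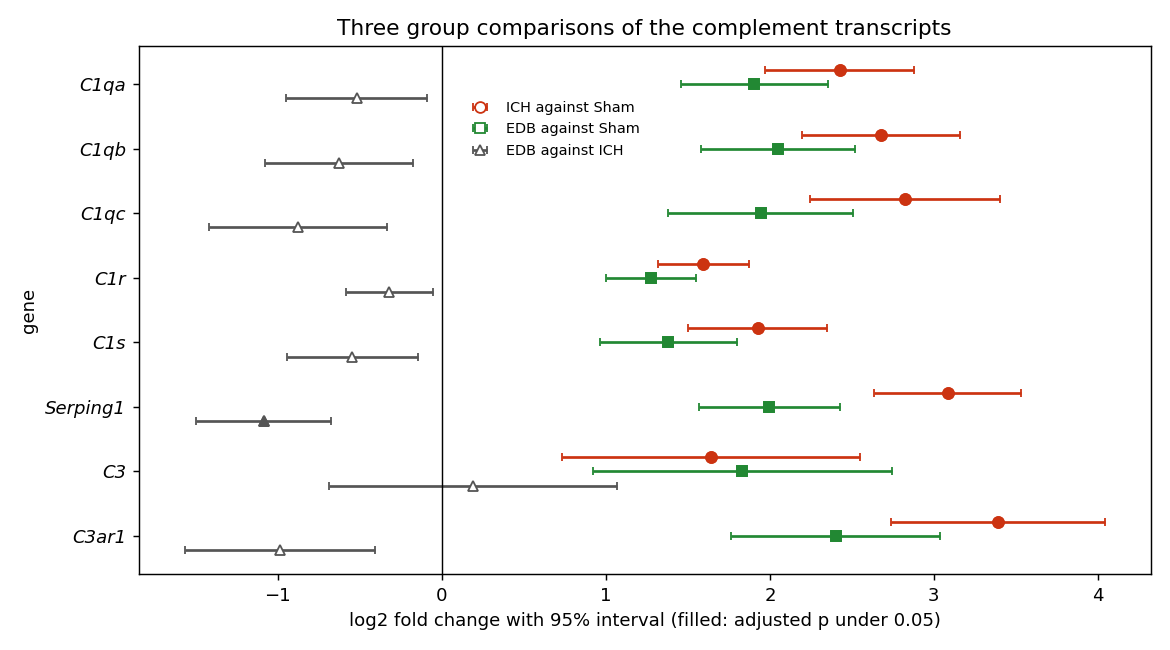
Log2 fold change (horizontal axis) with its 95% interval for each of the 8 genes in the 3 comparisons, filled where the adjusted p of edgeR's quasi-likelihood test is under 0.05. Every value against Sham is filled and lies above 0, and in EDB against ICH only Serping1, at -1.09, is filled.

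Ratios of counts within a library show whether the transcripts changed in proportion, and need no scaling between libraries. With 3 against 3 libraries an exact two-sided permutation test cannot go below p = 0.1, and 15 such tests were made, so that a p of 0.1 became 0.3 after Benjamini-Hochberg adjustment and none passed the threshold. The log2 ratio of Serping1 to C1r plus C1s was -0.64, -0.56 and -0.64 in Sham, 0.53, 0.72 and 1.08 in ICH, and 0.45, -0.07 and -0.29 in EDB. The 3 groups did not overlap. The mean ratio was higher by 1.39 in ICH than in Sham, lower by 0.75 in EDB than in ICH, and higher by 0.64 in EDB than in Sham, each with an exact permutation p of 0.1.

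C1qc made up 22.7%, 23.4% and 26.5% of the summed counts of the C1q chains in Sham, 27.4%, 27.3% and 29.3% in ICH, and 25.3%, 23.6% and 22.1% in EDB. Exact (Clopper-Pearson) 95% intervals, which cover counting error only, ran from 21.4% to 24.0% in Sham 1, 28.8% to 29.8% in ICH 3 and 21.4% to 22.9% in EDB 3. The intervals of Sham 3 (25.2% to 27.8%), ICH 1 (26.8% to 27.9%) and ICH 2 (26.75% to 27.8%) overlapped. ICH libraries were above all others, by a mean of 3.80 percentage points over Sham and 4.33 over EDB (exact permutation p = 0.1 for each), while EDB and Sham overlapped (exact p = 0.7). The share of C1qb overlapped between all groups, at 30.6% to 34.8% in Sham, 31.9% to 37.1% in ICH and 34.0% to 35.9% in EDB. The log2 ratio of C1s to C1r also overlapped, at -1.29 to -1.15 in Sham, -1.17 to -0.66 in ICH and -1.25 to -0.99 in EDB.

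The log2 ratio of C3 to the C1q chains was -2.14, -1.64 and -2.37 in Sham, -2.29, -2.79 and -4.42 in ICH, and -2.13, -2.09 and -2.35 in EDB. ICH 3 had by far the lowest ratio, and the mean of ICH was lower than that of Sham by 1.12 and than that of EDB by 0.98 (exact permutation p = 0.2 for each). Without ICH 3 the ICH mean was lower than that of Sham by 0.49 and than that of EDB by 0.35. EDB and Sham differed by -0.14 (exact p = 0.9).

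**Figure D3:**
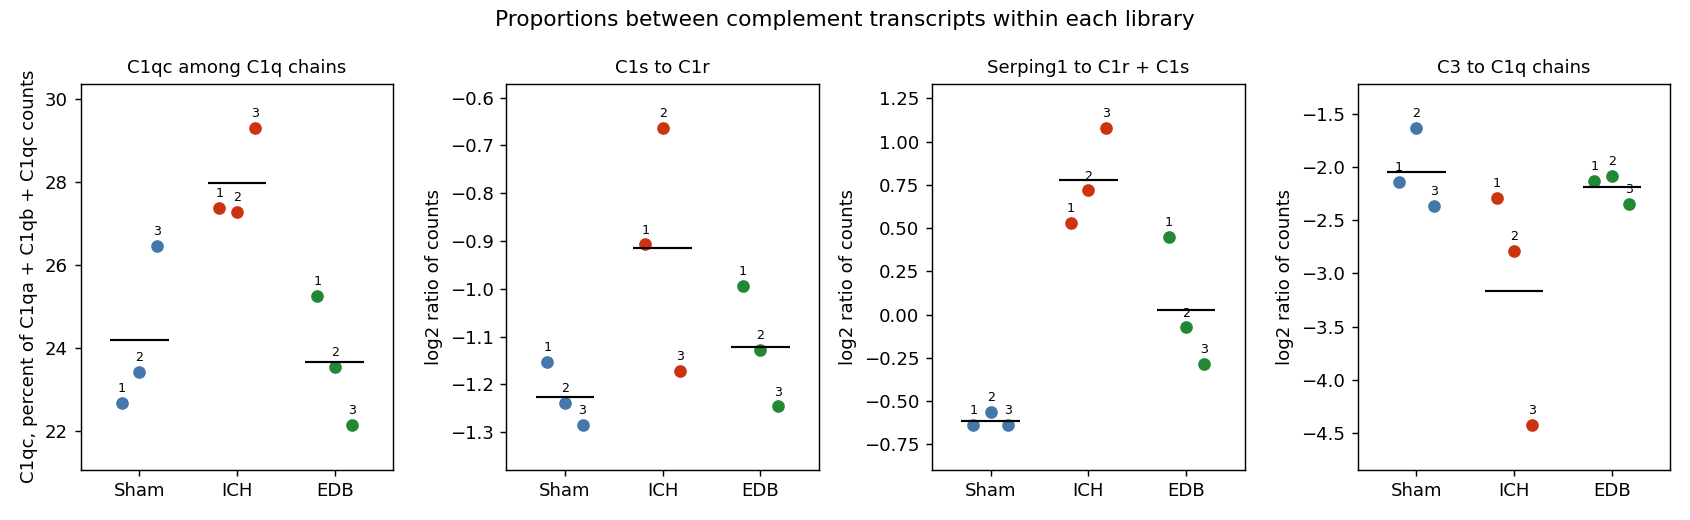
Proportions between transcripts in each library: the share of C1qc in the summed C1q counts in percent, and the log2 ratios of C1s to C1r, Serping1 to C1r plus C1s, and C3 to the C1q chains. Points are libraries with replicate numbers and bars are group means; the Serping1 ratio separates all 3 groups, and ICH 3 has the lowest C3 ratio at -4.42.

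Profiles over the 9 libraries were compared by the root mean square difference of log2 CPM centred on each gene's mean, with no test. Among the 8 genes, C1qb and C1qc were closest (0.135), followed by C1r and C1s (0.186), while C3 and C3ar1 were farthest apart (0.98). The 5 genes nearest to the mean profile of the C1q chains were RT1-DMb (0.147), Unc93b1 (0.181), Aif1 (0.189), Pld4 (0.191) and Hcls1 (0.192). Glb1 (0.0669) and Mvp (0.0842) were nearest to C1r, and Gusb (0.159) and Tep1 (0.168) to C1s. Tyrobp (0.169) and Epsti1 (0.210) were nearest to C3ar1, Ifi30 (0.173) and C1qc (0.203) to Serping1, and Tbx4 (0.293) and Spint1 (0.34) to C3. These names describe likeness over 9 libraries of 3 groups and say nothing of shared function.

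**Figure D4:**
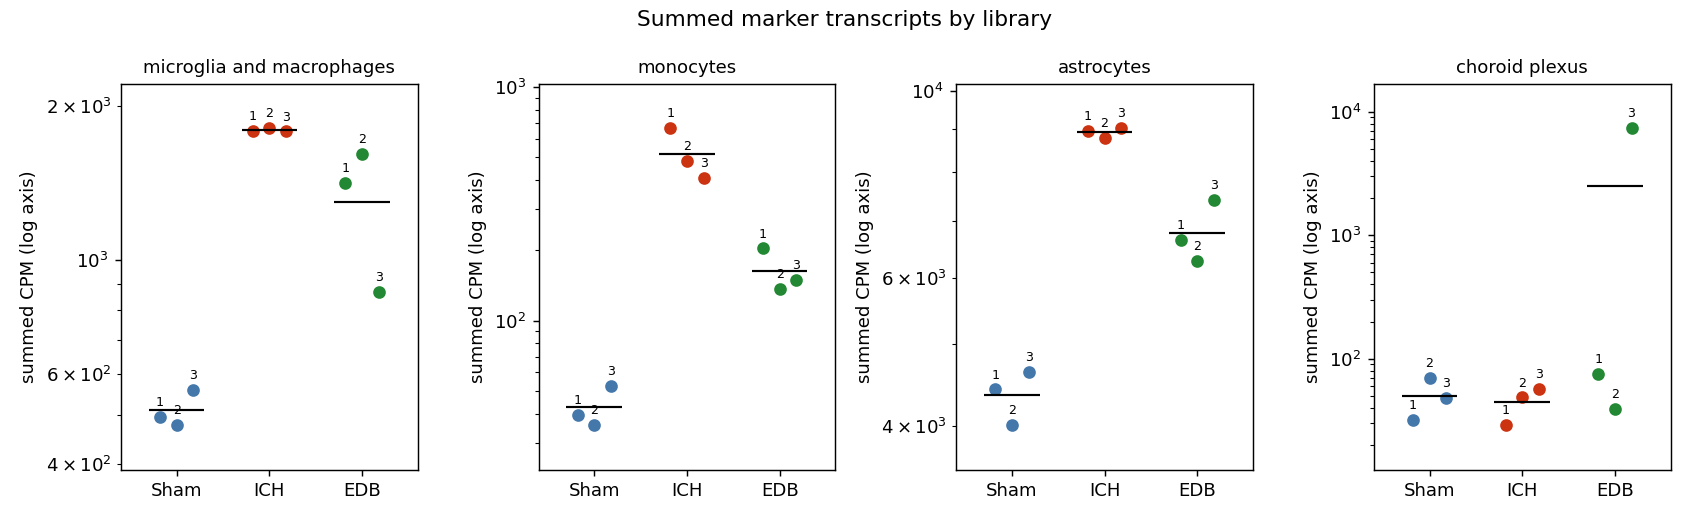
Summed CPM of marker transcripts of microglia and macrophages, monocytes, astrocytes and choroid plexus (vertical log axes) in each library, with replicate numbers and group means as bars. The first 3 sums are highest in ICH, and choroid plexus markers reach 7340 CPM in EDB 3 alone.

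Other complement genes were read from the same fit, 50 on the lists, of which 44 were in the tables and 32 were tested. In ICH against Sham 16 of the 32 rose and 3 fell, where 11.4% of all genes rose and 7.3% fell, and the median log2 fold change was 0.73. In EDB against Sham 10 rose and 2 fell, where 4.95% of all genes rose and 2.71% fell, with a median of 0.27. Limma-voom called 6 risen there, where it called 4.05% of all genes risen, and DESeq2 called 11, where it called 6.95%. Between EDB and ICH edgeR called 0 of 32, with a median of -0.36; 10 had an unadjusted p under 0.05, beside 16.2% of all genes, and 1 of these, Susd4, was higher in EDB. Limma-voom called 1 lower in EDB (Fcnb), beside 1.14% of all genes, and DESeq2 called 6 lower, beside 3.38%. All EDB libraries were below all ICH libraries for 10 of the 32, against 13.6% of tested genes, and above them for 1.

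Among other classical and lectin pathway genes, 4 of 9 rose and 1 fell in ICH against Sham, and 3 rose and 1 fell in EDB against Sham. Of all tested genes, 11.4% rose and 7.3% fell in ICH against Sham, and 4.95% rose and 2.71% fell in EDB against Sham. Fcnb, which encodes a ficolin that recognises sugars, was at 0.81, 0.75 and 0.14 CPM in Sham, 33.9, 21.6 and 12.9 CPM in ICH, and 3.65, 6.71 and 2.62 CPM in EDB. The groups did not overlap, and the Sham levels rest on few counts. Its log2 fold change was 5.29 ± 0.58 (SE, adjusted p = 0.000132, edgeR) in ICH against Sham and 2.89 ± 0.57 (adjusted p = 0.0117) in EDB against Sham. EDB against ICH gave -2.39 (adjusted p = 0.0514, edgeR), and 0.0425 without Sham 2. C4a, whose product is cleaved by C1s, was at 113, 109 and 114 CPM in Sham, 317, 381 and 362 CPM in ICH, and 367, 255 and 146 CPM in EDB. ICH and EDB overlapped through EDB 1. C4a rose by 1.66 on the log2 scale in ICH against Sham (adjusted p = 0.00126, edgeR) and by 1.19 in EDB against Sham (adjusted p = 0.0178), the latter lost without Sham 1, Sham 3 or EDB 1 (adjusted p 0.0559 to 0.0694). C4b had means of 15.45, 17.6 and 15.03 CPM in Sham, ICH and EDB. Its log2 fold change in ICH against Sham was 0.19 (adjusted p = 0.556, edgeR), which was not called. Reads of C4 genes can be split between near-identical copies, so the levels of C4a and C4b are uncertain. C1rl, a relative of C1r, rose by 1.79 and 1.81 (adjusted p = 0.00802 and 0.0171, edgeR), the second lost without Sham 3 or EDB 1 (adjusted p 0.0552 and 0.0713). Masp2, a protease of the lectin pathway, fell by 1.22 in ICH against Sham (adjusted p = 0.0371), a call lost without Sham 1, Sham 3 or any ICH library (adjusted p 0.0595 to 0.118). It fell by 1.36 in EDB against Sham (adjusted p = 0.0459), a call lost when any library other than Sham 2 and EDB 2 was left out (adjusted p 0.0538 to 0.157).

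In the alternative pathway, which amplifies C3 cleavage, 3 of 3 genes rose in ICH against Sham and 2 of 3 rose in EDB against Sham. Cfb, the factor B gene, was at 58.8, 54.8 and 59.9 CPM in Sham, 217, 239 and 202 CPM in ICH, and 198, 154.5 and 119 CPM in EDB. The 3 groups did not overlap. Its log2 fold changes were 1.92 ± 0.17 (SE, adjusted p = 4.86e-05, edgeR) and 1.44 ± 0.17 (adjusted p = 0.000872) against Sham. Cfp, which encodes properdin, rose by 1.58 in ICH against Sham (adjusted p = 0.00334, edgeR). Its rise of 1.09 in EDB against Sham (adjusted p = 0.0439) was lost when any library other than EDB 3 was left out (adjusted p 0.0567 to 0.149), and limma-voom called 1 of the 3 genes there. Cfd, the factor D gene, rose by 1.72 (adjusted p = 0.0434), a call lost whenever a Sham or ICH library was left out (adjusted p 0.0719 to 0.142). Of 2 tested terminal components, C6 rose in ICH against Sham by 4.01 (adjusted p = 0.00586), from few counts, and neither was called in EDB against Sham by edgeR, limma-voom or DESeq2, with 0 at an unadjusted p under 0.05.

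Of the 11 tested regulators, edgeR called 3 risen and 2 fallen in ICH against Sham, beside 11.4% and 7.3% of all genes. DESeq2 called 3 risen and 3 fallen there. In EDB against Sham edgeR called 0 risen and 1 fallen, beside 4.95% and 2.71% of all genes, and limma-voom called the same counts. DESeq2 called 1 risen and 1 fallen, and 5 had an unadjusted p under 0.05 in edgeR, beside 22.9% of all genes. Vtn, the gene of vitronectin, was at 57.1, 58.8 and 72.9 CPM in Sham, 33.2, 32.3 and 30.8 CPM in ICH, and 39.0, 31.6 and 38.3 CPM in EDB. Both groups were below Sham and overlapped each other. Vtn fell by 0.97 in ICH against Sham (adjusted p = 0.000664, edgeR) and by 0.79 in EDB against Sham (adjusted p = 0.00595). Clu, or clusterin, and Cr1l rose by 0.865 and 0.775 in ICH against Sham (adjusted p = 0.00752 and 0.0109), and Susd4 fell by 0.67 (adjusted p = 0.00765).

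Of the other complement receptors, 5 of 7 rose in both comparisons with Sham, where 11.4% (ICH) and 4.95% (EDB) of all genes rose. Limma-voom called 3 of 7 risen in EDB against Sham, beside 4.05% of all genes. Itgam and Itgb2 encode the chains of complement receptor 3, an integrin of phagocytes that binds C3 fragments. Itgam was at 14.6, 21.0 and 34.7 CPM in Sham, 152, 148.5 and 126 CPM in ICH, and 115, 132 and 70.4 CPM in EDB. ICH and EDB overlapped, and both were clear of Sham. Itgam rose by 2.601 ± 0.31 on the log2 scale (SE, adjusted p = 0.000201, edgeR) in ICH against Sham and by 2.18 ± 0.30 (adjusted p = 0.00187) in EDB against Sham, and Itgb2 rose by 2.22 and 1.40 (adjusted p = 9.42e-05 and 0.00399). C5ar2, another receptor for C5a, was at 6.995, 6.77 and 11.04 CPM in Sham, 42.3, 31.2 and 29.4 CPM in ICH, and 24.8, 17.7 and 12.6 CPM in EDB, without overlap. It rose by 2.05 in ICH against Sham (adjusted p = 0.000539, edgeR) and by 1.15 in EDB against Sham (adjusted p = 0.0301), the latter lost without Sham 1, Sham 2, ICH 2, EDB 1 or EDB 2 (adjusted p 0.0515 to 0.121). Itgax, another integrin chain, rose by 4.53 in ICH against Sham (adjusted p = 0.00111) and was at 0 in Sham 3. Its rise in EDB against Sham, 2.94 (adjusted p = 0.0287), was lost without Sham 2, Sham 3, ICH 2 or EDB 1 (adjusted p 0.0531 to 0.109). Calr, named after its values were seen, rose in EDB against Sham by 0.57 (adjusted p = 0.0386, edgeR), and that call was lost when any library other than Sham 2 and ICH 1 was left out (adjusted p 0.0504 to 0.164).

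C1q-domain relatives share a fold with C1q, and pentraxins include proteins that bind C1q. Among the C1q-domain relatives, 1 of 6 rose in ICH against Sham, where 11.4% of all genes rose. It was C1ql1, by 0.63 (adjusted p = 0.0229, edgeR), a call lost without Sham 2, Sham 3 or any ICH library (adjusted p 0.0523 to 0.0696). In EDB against Sham 0 of 6 were called, with 0 at an unadjusted p under 0.05 and 0 by limma-voom or DESeq2. Of the 4 tested pentraxins, 0 were called in ICH against Sham by edgeR, limma-voom or DESeq2, with 1 at an unadjusted p under 0.05 (31.5% of all genes). In EDB against Sham edgeR and limma-voom called 0 of 4, with 1 at an unadjusted p under 0.05 (22.9% of all genes), and DESeq2 called 1. In EDB against ICH edgeR called 0 of either list, with 1 of each at an unadjusted p under 0.05, beside 16.2% of all genes. Limma-voom called 0, and DESeq2 called 1 C1q-domain relative lower, beside 3.38% of all genes.

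**Figure D5:**
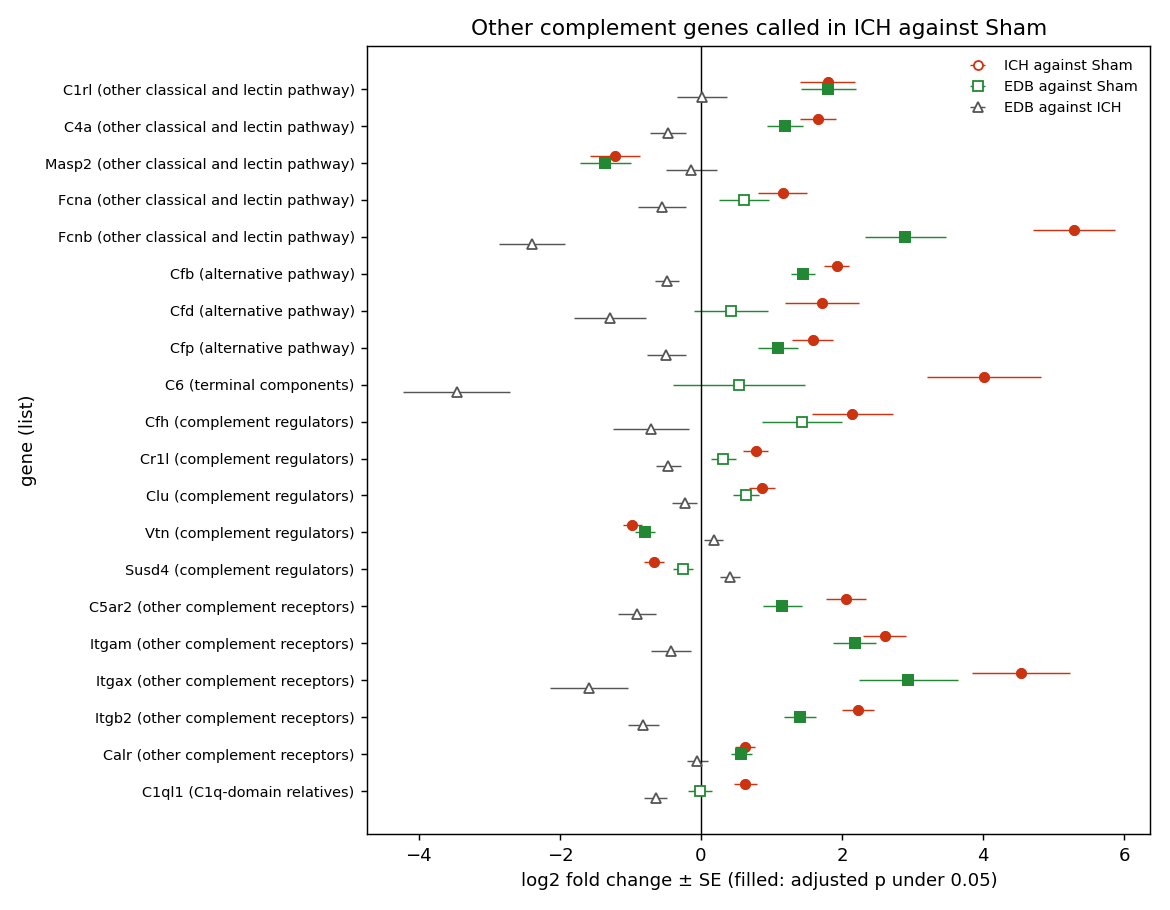
Log2 fold change ± SE (horizontal axis) of the other complement and C1q-related genes called in ICH against Sham, in the 3 comparisons, filled where the adjusted p is under 0.05. No EDB against ICH point is filled, and Fcnb has the highest value against Sham, 5.29 in ICH.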

How the data were processed

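The deposited files hold whole-number read counts per gene, 1 library per file, made by the authors. The submitters' processing notes list cutadapt, HISAT2, HTSeq and limma, and the genome build Rnor_6.0. Tool versions, annotation and strand setting were not given in the sources used here; without a strand setting reads of overlapping genes cannot be told apart. The counts went into edgeR 4.0.16 (R 4.3.3) as deposited: filterByExpr by group (14274 of 22890 genes kept), TMM, and 1 quasi-likelihood model of all 9 libraries with a mean per group, robust. Calls were made at p under 0.05 after Benjamini-Hochberg adjustment across the tested genes; SE and 95% intervals are of the fitted log2 fold changes. Fits were tested on simulated data. Ratios used summed counts per library, with nothing added, and exact permutation tests. Adding 0.5 counts was an alternative for the ratios. Named genes were the members, up to 4 called genes per complement list and comparison by smallest p, and the nearest profiles. Marker genes were named only beside a result, and C4b, which was not called, only beside C4a. The members, lists, tests and alternatives were chosen with earlier results of these data known. Alternatives were RLE scaling, library size only, no filter, at least 1 CPM in 3 libraries, the replicate number as a block, a log2 fold change above 1 (glmTreat), only the 6 libraries compared, limma-voom (limma 3.58.1), DESeq2 1.42.0, and each library left out.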

Additional observations from a re-analysis of the deposited data

How the results depend on the processing

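Over all genes, 2670 were called in ICH against Sham (1628 risen, 1042 fallen), 98 in EDB against ICH and 1094 in EDB against Sham. Scaling by library size only moved the ICH against Sham split to 2008 risen and 691 fallen (74.4% risen, from 61.0%), with a shift of the median of all genes by 0.10. With a log2 fold change above 1 the counts were 418, 1 and 68. DESeq2 gave 687 in EDB against ICH and 1775 in EDB against Sham, and limma-voom gave 187 in EDB against ICH. With each library left out the counts ran from 1769 to 2624, 8 to 321 and 508 to 1661. Members called in ICH against Sham were 8 (7 to 8 with a library left out), and 7 with a log2 fold change above 1. In EDB against Sham they were 8 (7 to 8 with a library left out). They were 7 there with no filter on low counts, which lost C3, and 4 with a log2 fold change above 1. In EDB against ICH they were 1 (0 to 1), 0 with only the 6 libraries compared or a log2 fold change above 1, and 3 by DESeq2. C3 in EDB against ICH reversed to -0.18 without ICH 3 and -0.07 without EDB 1 (range -0.18 to 0.50). The C1qb share in EDB against ICH reversed to -0.84 without ICH 2 and -0.16 without EDB 2 (range -0.84 to 1.76), the C1qc share in EDB against Sham to 0.61 without Sham 3 and 0.22 without EDB 3 (range -1.34 to 0.61), and the ratio of C3 to C1q in EDB against Sham to 0.0663 without Sham 2 (range -0.30 to 0.0663). The cause was not tested. With profiles divided by each gene's SD, RT1-DMb was again nearest to C1q, but the next 4 became Hmox1, Tmem176a, Lyl1 and Cndp1, and the nearest to C1r, C1s, C3, C3ar1 and Serping1 became Rab20, Nlrp3, Napepld, Blnk and Cotl1. Correlations of deviations from group means were -0.31 to 0.25 between libraries of the same replicate number and -0.23 to 0.33 between the others. With so few libraries they cannot settle whether the numbers pair samples. With the replicate block 58 genes were called in EDB against ICH, among them Serping1. The planned ratio of C5ar1 to C3ar1 was not run. Fcnb, C6 and Itgax had 0 to 13 counts per library in Sham, so their fold changes against Sham rest on few counts.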
